A study of Mus musculus with 12 samples.

Results

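Circadian clock genes were examined as 10 rows of a count table of mouse heart RNA: Arntl, Npas2, Per1, Per2, Per3, Cry1, Cry2, Nr1d1, Nr1d2 and Dbp. They were chosen by gene symbol, all 10 were found among 23457 rows, and all 10 were among the 13050 genes left by the low-count filter. The 12 heart samples are labelled as adult, on the C57BL/6J background and floxed for Parkin. The noninduced group held 6 samples labelled as floxed without Cre. The Parkin KO group held 6 samples labelled as floxed with MERCreMer, a Cre recombinase that enters the nucleus when tamoxifen binds it. Parkin is a ubiquitin ligase of mitochondrial quality control, and the design sets hearts that lost it in adult life beside hearts that kept it. Every sample is labelled 9 to 10 weeks after tamoxifen, the noninduced samples included. By the labels Parkin loss and MERCreMer fall in the same group and cannot be told apart. The apex of the ventricles was frozen for polyadenylated RNA, while the tissue label reads whole heart, and nothing in the labels says whether animals were pooled.

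The mammalian clock is a loop of transcription that runs in nearly every cell, cardiomyocytes included, with a period of about a day. The activators BMAL1, encoded by Arntl, and CLOCK or NPAS2 bind E-box elements and switch on the Per and Cry genes, whose proteins then block the activators. The same activators drive Nr1d1 and Nr1d2, whose REV-ERB proteins repress Arntl, Npas2 and Cry1 through elements shared with ROR activators, and Dbp, a factor that activates genes through D-box elements. RNA of Arntl therefore runs opposite to that of the Per genes and Dbp over the day, so single samples of these genes depend on the hour at which a tissue is taken. The hour of collection is not given in the sources used here, and its part in the values was not tested.

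Promoter letters of 3 members are shown. Arntl and Per1 were planned for printing and held a motif, while Npas2, Nr1d1 and Dbp were planned but held none. A motif was thus a condition of showing Arntl and Per1. Per3 was added after its values were seen, as the member whose RNA was most opposed to that of Arntl across the hearts. Each sequence runs from 250 bases before to 50 bases after a RefSeq gene start, on GRCm38.p6, the assembly that mm10 also names. Capitals mark CACGTG (E-box), TTANNTAA (D-box) and TNGGTCA (a loose form of the element of ROR and REV-ERB, with any base at N), searched on both strands. Arntl is shown at chr7:113207215-113207514 on the plus strand, Per1 at chr11:69098699-69098998 on the plus strand and Per3 at chr4:151044616-151044915 on the minus strand.
Arntl: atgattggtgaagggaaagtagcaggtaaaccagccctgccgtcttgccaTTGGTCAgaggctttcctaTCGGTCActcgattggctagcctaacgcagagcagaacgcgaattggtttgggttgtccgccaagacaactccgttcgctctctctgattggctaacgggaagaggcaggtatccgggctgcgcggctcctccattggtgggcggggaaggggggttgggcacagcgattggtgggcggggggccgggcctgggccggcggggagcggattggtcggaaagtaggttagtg
Per1: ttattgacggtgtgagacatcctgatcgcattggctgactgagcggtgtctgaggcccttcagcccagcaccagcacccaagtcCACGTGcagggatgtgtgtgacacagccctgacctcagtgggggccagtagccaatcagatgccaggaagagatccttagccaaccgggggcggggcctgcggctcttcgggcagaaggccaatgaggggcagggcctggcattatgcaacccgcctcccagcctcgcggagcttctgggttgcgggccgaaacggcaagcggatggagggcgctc
Per3: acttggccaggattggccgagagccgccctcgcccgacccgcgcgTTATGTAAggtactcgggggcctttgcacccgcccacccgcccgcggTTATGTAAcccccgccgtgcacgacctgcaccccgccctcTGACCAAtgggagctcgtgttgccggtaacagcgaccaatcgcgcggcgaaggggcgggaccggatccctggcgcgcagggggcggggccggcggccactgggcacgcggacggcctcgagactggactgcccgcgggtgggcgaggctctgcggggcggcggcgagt

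In the promoters shown, Arntl held 2 matches to the loose ROR and REV-ERB letters (TTGGTCA and TCGGTCA) and Per1 held 1 E-box. Per3 held 2 D-boxes and 1 match to those letters (TTGGTCA on the opposite strand). Arntl and Per1 each had another promoter entry, which held 3 matches to the loose letters for Arntl and no motif for Per1. The third of those Arntl matches, TAGGTCA, lay beyond the window shown. Whether a protein binds at any match was not tested. Among 9 members with a promoter in the table, an E-box was found for 2 (Per1 and Cry1), a D-box for 1 (Per3) and the ROR and REV-ERB letters for 3 (Arntl, Per3 and Cry2). Counted per gene in the same way, 8.09% of all 27025 genes with such promoters held the E-box letters, 6.93% the D-box letters and 12.4% the ROR and REV-ERB letters. Per promoter, over all 32851 of this length, the shares were 7.15%, 6.00% and 10.96%. Npas2, Nr1d1, Nr1d2 and Dbp had no match in this window, and Per2 had no entry.

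All 10 members are protein-coding in GENCODE on GRCm38. Arntl lies on chromosome 7 from 113207465 to 113314126, Per1 on chromosome 11 from 69095217 to 69109960, Per3 on chromosome 4 from 151003652 to 151044665, Cry1 on chromosome 10 from 85131700 to 85185064, Nr1d1 on chromosome 11 from 98767932 to 98775333 and Dbp on chromosome 7 from 45705088 to 45710203. Because the protocol does not keep strand, reads from overlapping genes on opposite strands cannot be told apart. Exons of Sphk2 covered 18.0% of the exon bases of Dbp, exons of the thyroid hormone receptor gene Thra covered 8.55% of those of Nr1d1, and D930015M05Rik covered 4.67% of those of Cry2. These are shares of exon bases, not of reads, and how reads were counted is not given. The values of these 3 members are therefore uncertain to an unknown extent.

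Libraries held 11610507 to 16884516 counted reads, so that 1 read was worth 0.0548 to 0.0948 CPM (reads scaled to a common library size after TMM normalization). Esr1, on which MERCreMer reads can be counted, stood at 1553 to 4683 CPM in Parkin KO libraries and at 24.0 to 962 CPM in noninduced ones. The libraries labelled noninduced 1 and 3 held 558 and 962 CPM, against 24.0 to 64.9 CPM in the rest of their group. These values match neither group, so the 2 labels are in doubt, and the cause was not tested. Parkin KO libraries 2, 5 and 6 held 495 to 634 reads of 4 Y-linked genes and the library labelled noninduced 3 held 178, against at most 7 in each of the others. Cardiomyocyte markers (7 of 7 measured) summed to 53815 to 83000 CPM in noninduced and 72661 to 90664 CPM in Parkin KO libraries, while lymphocyte markers summed to at most 6.30 CPM. In bulk tissue, fewer cells of a type and less RNA per cell cannot be told apart.

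Ordered by FPKM, the deposited level per length of transcript, the members spanned a wide range. Nr1d1 was the most abundant at 134 ± 25.9 FPKM (SD, n = 12), followed by Dbp at 74.7 ± 15.4 and Per1 at 48.7 ± 20.8 FPKM. Dbp lay above Per1 in 10 of 12 libraries, so these 2 neighbours overlapped. Cry2 at 17.9 ± 2.96, Per3 at 13.8 ± 2.13, Per2 at 12.8 ± 3.15 and Nr1d2 at 9.52 ± 2.18 FPKM formed the middle of the order. Per3 exceeded Per2 in only 8 of 12 libraries, and these did not differ beyond their spread. Cry1 stood at 2.78 ± 0.592, Npas2 at 1.35 ± 0.328 and Arntl at 0.622 ± 0.408 FPKM. Arntl was thus the lowest member, listed above 8.27% of the tested genes, while its partner Clock stood at 3.55 ± 0.573 FPKM.

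No member passed the test of Parkin KO against noninduced hearts. By the edgeR quasi-likelihood F test, adjusted over all 13050 genes (Benjamini-Hochberg), 0 of 10 members were called, against 0.0% of all genes (0 calls). At an unadjusted p under 0.05 there were 0 members as well, against 11.4% of all genes, and DESeq2 and limma-voom called 0 members. Per1 came under that unadjusted threshold without noninduced replicate 4 or 6, where 16.3% and 14.4% of all genes did. Nr1d1 did so without Parkin KO replicate 5, where 10.2% of all genes did. The groups overlapped for all 10 members, while they did not for 0.345% of all genes. Log2 fold changes were positive for 5 members, against 52.0% of all genes, and negative for 5, with a median of -0.02 beside 0.0098 over all tested genes. The median absolute log2 fold change was 0.12 for the members and 0.13 for all tested genes. The labels number the heart samples but do not say that each came from a separate animal. Y-linked reads, at most 7 in Parkin KO libraries 1, 3 and 4 and 495 to 634 in 2, 5 and 6, show more than 1 animal there. The p-values measure only the spread between these samples, part of which may be technical.

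**Figure D1:**
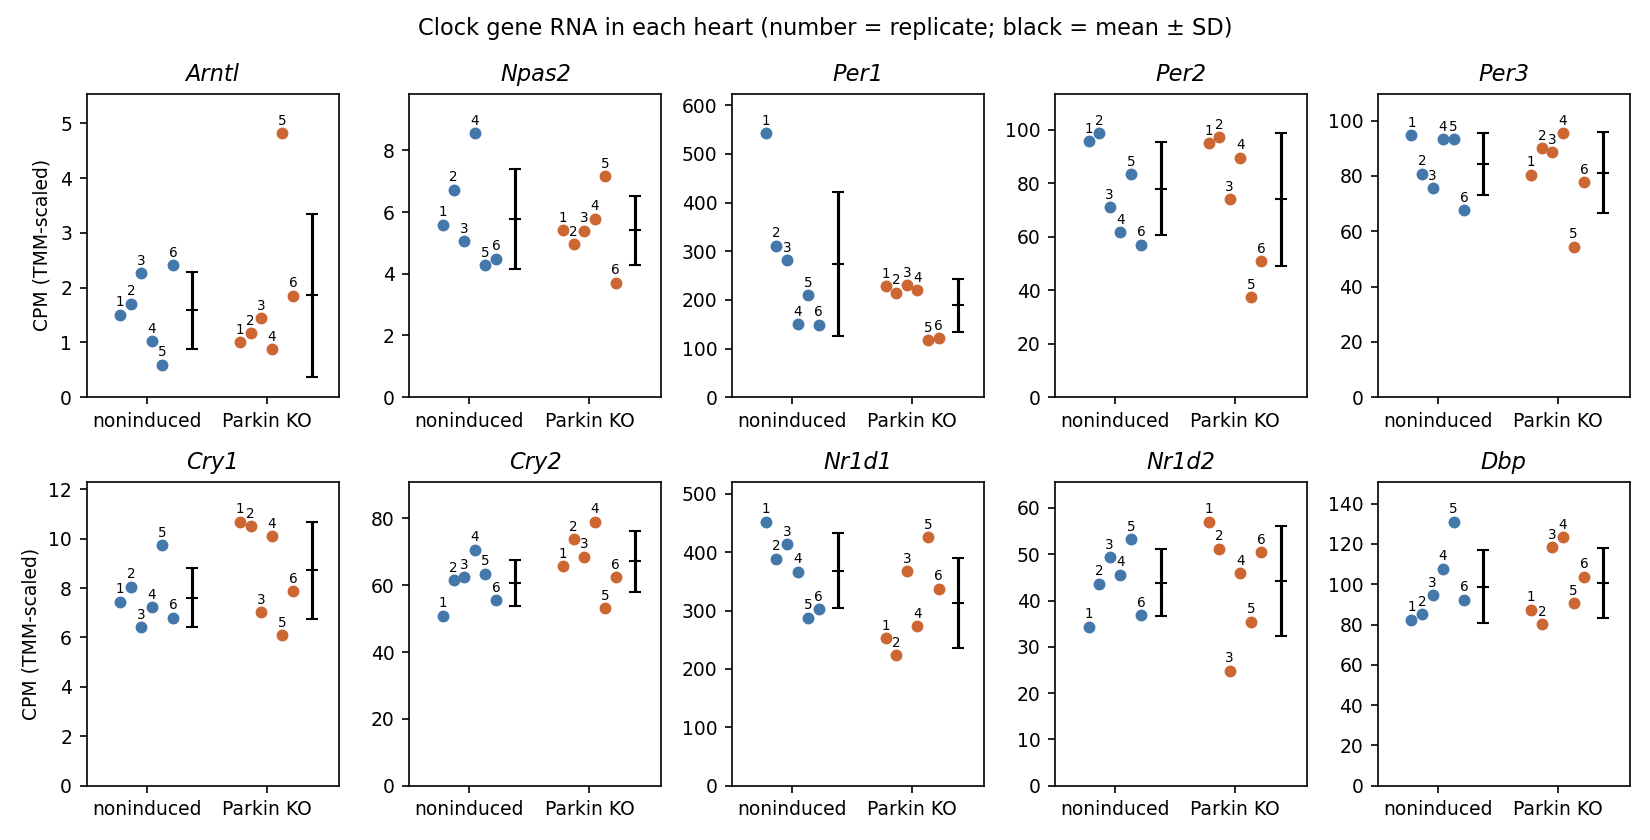
CPM of each clock gene (y axis, from 0) in 6 noninduced (blue) and 6 Parkin KO (orange) hearts, with the replicate number beside each point and the mean ± SD in black. The groups overlap in every panel, and Parkin KO replicate 5 stands apart for Arntl at 4.82 CPM.

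Of the activators, Arntl was the least abundant and the most variable. It ran from 0.593 through a median of 1.61 to 2.41 CPM in noninduced hearts and from 0.876 through 1.30 to 4.82 CPM in Parkin KO hearts. The highest value came from Parkin KO replicate 5 and the lowest from noninduced replicate 5, and the other 10 libraries of both groups were interleaved. These 2 extremes rest on 68 and 10 reads, for which exact 95% Poisson intervals, covering counting error only, are 3.74 to 6.11 CPM and 0.285 to 1.09 CPM. The log2 fold change was 0.22 ± 0.43 (SE), with an approximate 95% interval of -0.70 to 1.13 (edgeR, adjusted p = 0.846). Without Parkin KO replicate 5 it was -0.32, so the sign rests on that library.

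Npas2, the paralogue of Clock that can partner BMAL1, ran from 4.27 through 5.32 to 8.56 CPM in noninduced and from 3.71 through 5.40 to 7.16 CPM in Parkin KO hearts. Its highest value was in noninduced replicate 4 and its lowest in Parkin KO replicate 6, with full overlap of the groups between them. Its log2 fold change was -0.09 ± 0.19 (SE; edgeR, adjusted p = 0.848).

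Per1, a repressor of the loop that is also induced within an hour by cAMP signalling and glucocorticoids, had the largest difference of the 10. It ran from 149 through 246 to 543 CPM in noninduced and from 118 through 217 to 230 CPM in Parkin KO hearts. Noninduced libraries 1, 2 and 3 were the only ones above the highest Parkin KO value, at 543, 311 and 281 CPM, and Parkin KO libraries 5 and 6 were the lowest of all 12, at 118 and 121 CPM. All 6 Parkin KO values lay below the noninduced mean of 274 ± 148 CPM (SD, n = 6). The log2 fold change was -0.54 ± 0.29 (SE), with an interval of -1.17 to 0.09, and did not pass (edgeR, adjusted p = 0.464). It was -0.24 without noninduced replicate 1 and -0.14 without noninduced libraries 1 and 3.

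The same 3 noninduced libraries were the highest for immediate-early genes, which cells switch on within minutes of a stimulus. Summed over 12 such genes, they held 1158, 924 and 673 CPM. The remaining noninduced libraries held 266 to 330 CPM, and those of Parkin KO held 197 to 580 CPM, with replicate 1 highest. Reads of mitochondrial DNA took 15.2%, 15.4% and 10.0% of the total in these 3 libraries and 4.79 to 8.98% elsewhere. The part of these measures in the Per1 values was not tested.

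Per2, which acts with Per1 in the repressor complex, ran from 57.0 through 77.3 to 98.7 CPM in noninduced and from 37.3 through 81.7 to 97.1 CPM in Parkin KO hearts. Parkin KO replicate 5 was lowest and Parkin KO replicate 6 next, while the other 4 Parkin KO values lay within the noninduced range. For Per2 the log2 fold change was -0.07 ± 0.22 (SE; edgeR, adjusted p = 0.900). Per3, a family member that is largely dispensable for the rhythm itself, ran from 67.7 through 87.1 to 94.7 CPM in noninduced and from 54.4 through 84.5 to 95.5 CPM in Parkin KO hearts. Again Parkin KO replicate 5 alone lay below every noninduced heart. Its log2 fold change was -0.05 ± 0.13 (SE; edgeR, adjusted p = 0.873).

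Cry1, the stronger of the cryptochrome repressors, ran from 6.41 through 7.34 to 9.73 CPM in noninduced and from 6.10 through 8.99 to 10.7 CPM in Parkin KO hearts. Parkin KO libraries 1, 2 and 4 were above every noninduced library, and Parkin KO replicate 5 was below every one. For Cry1 the log2 fold change was 0.19 ± 0.15 (SE; edgeR, adjusted p = 0.605). Cry2, the second cryptochrome, varied least, from 50.8 through 62.0 to 70.7 CPM in noninduced and from 53.2 through 67.1 to 79.0 CPM in Parkin KO hearts. Of its Parkin KO values, 5 of 6 exceeded the noninduced mean of 60.8 CPM. For Cry2 the log2 fold change was 0.14 ± 0.10 (SE), with an interval of -0.07 to 0.36 (edgeR, adjusted p = 0.564).

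Nr1d1, which encodes REV-ERB alpha, ran from 288 through 378 to 452 CPM in noninduced and from 224 through 305 to 426 CPM in Parkin KO hearts. Parkin KO libraries 1, 2 and 4 were the lowest of all 12, and 5 of 6 Parkin KO values lay below the noninduced mean. The log2 fold change was -0.23 ± 0.16 (SE; edgeR, adjusted p = 0.548). Nr1d2, which encodes REV-ERB beta, ran from 34.3 through 44.6 to 53.2 CPM in noninduced and from 24.8 through 48.2 to 57.0 CPM in Parkin KO hearts, with Parkin KO replicate 3 the lowest. Its log2 fold change was 0.01 ± 0.17 (SE; edgeR, adjusted p = 0.985). Dbp, the output factor, ran from 82.4 through 93.4 to 131 CPM in noninduced and from 80.1 through 97.2 to 123 CPM in Parkin KO hearts. Noninduced replicate 5, the library of lowest Arntl, was the highest for Dbp. The log2 fold change of Dbp was 0.02 ± 0.13 (SE; edgeR, adjusted p = 0.946).

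**Figure D2:**
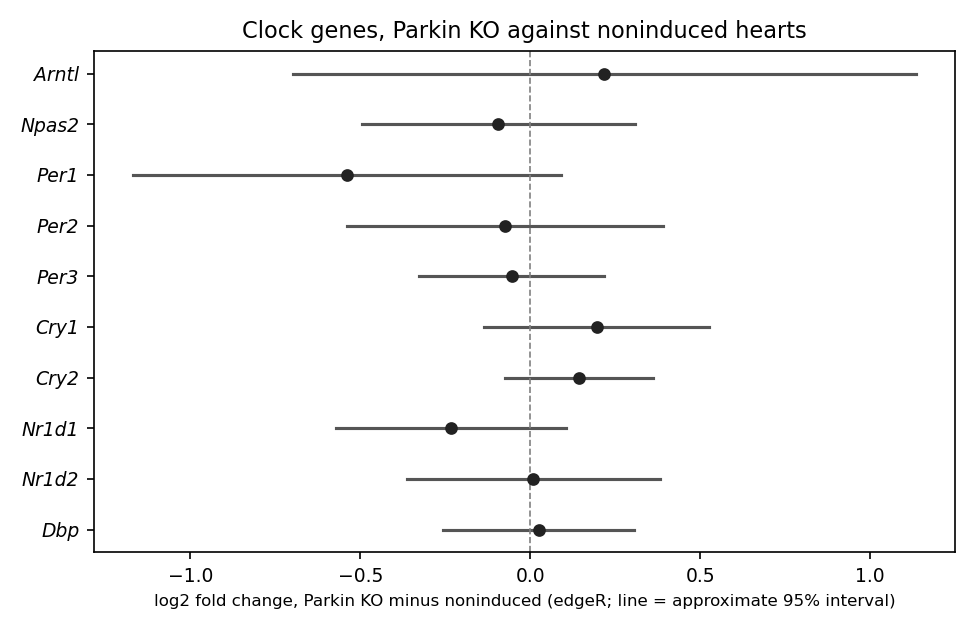
Log2 fold change of Parkin KO minus noninduced (x axis; points) with approximate 95% intervals (lines) from edgeR for the 10 clock genes. Every interval includes 0, with the widest for Arntl (-0.70 to 1.13) and Per1 (-1.17 to 0.09).

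Several members varied widely between hearts of the same group. The biological coefficient of variation is edgeR's estimate of the spread beyond counting noise. It was above the trend for genes of like abundance in 8 of 10 members. Of these, Npas2, Per3 and Dbp were barely above it, at ratios of 1.01, 1.01 and 1.03. The share of all genes above the trend was not counted, but Csnk1e, another clock gene, at a ratio of 1.0005 lay above 74.5% of tested genes. The median ratio to that trend was 1.10 for the members and 0.819 for all tested genes. Per1 had the highest ratio at 2.097, above 98.1% of tested genes, followed by Arntl at 1.79 (96.6%) and Per2 at 1.64 (95.5%). Cry1 and Cry2 were below the trend at 0.929 and 0.833. Against that trend the cryptochrome genes were the steadiest members, and Per1, Arntl and Per2 the most variable. Between the highest and the lowest library Arntl differed 8.12-fold and Per1 4.61-fold, while Cry2 differed 1.55-fold.

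**Figure D3:**
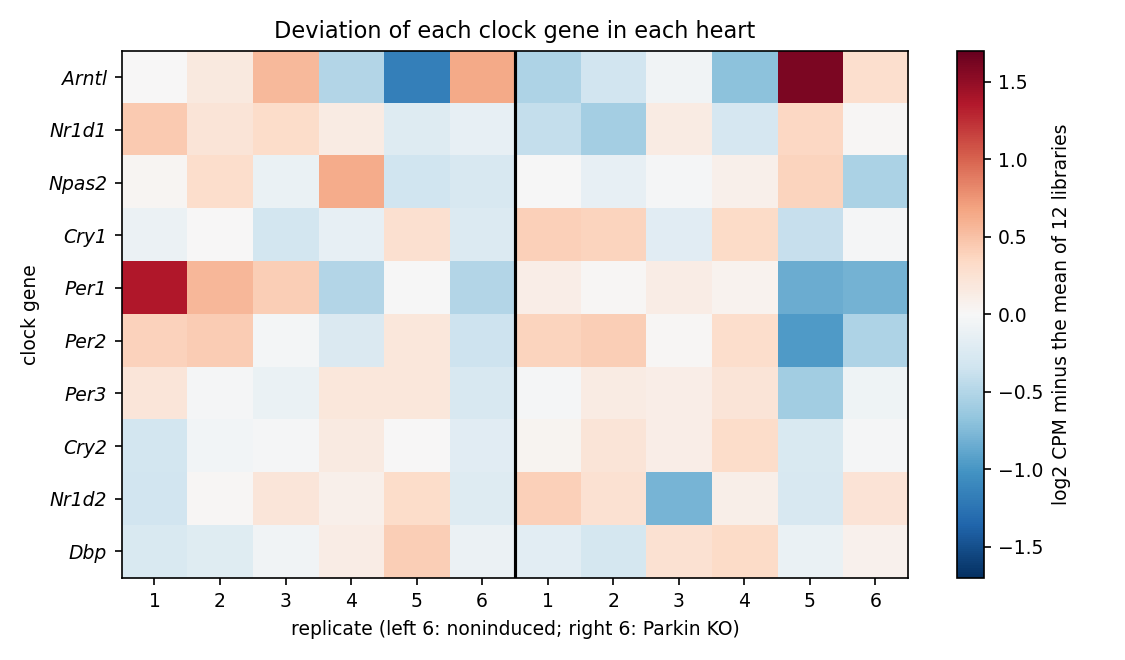
Log2 CPM of each clock gene (rows) in each library (columns, numbered by replicate) minus its mean over 12 libraries, red above and blue below. Parkin KO replicate 5 is high for Arntl, Npas2 and Nr1d1 and low for the Per and Cry genes, and noninduced replicate 5 is the lowest for Arntl and the highest for Dbp.

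Library by library, replicate 5 of each group stood farthest from the others in the arm contrast described below. Parkin KO replicate 5 had the highest Arntl and the lowest Per1, Per2, Per3 and Cry1 of all 12 libraries, with Nr1d1 at 426 CPM, the second highest after noninduced replicate 1. An arm contrast was taken as the mean centred log2 CPM of Arntl, Npas2 and Cry1 minus that of Per1, Per2, Per3, Cry2, Nr1d1, Nr1d2 and Dbp. It was 0.92 in Parkin KO replicate 5, -0.54 in noninduced replicate 5, and between -0.24 and 0.30 in the other 10 libraries. Its mean was 0.08 ± 0.42 in Parkin KO and -0.08 ± 0.28 in noninduced hearts (SD, n = 6 each), a difference of 0.17 that was smaller than the spread within either group. Without Parkin KO replicate 5 the difference was 0.0034.

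Across the 12 hearts, 4 of 45 pairs of members had a correlation of log2 CPM that passed after Benjamini-Hochberg adjustment over the 45 pairs. With each group centred on its own mean, 3 of them passed, and Cry1 with Nr1d1 did not (permutation test, adjusted p = 0.0745). The share of pairs of other genes that would pass was not computed, so these counts have no background beside them. Genes outside the members also reached r of 0.82 (Smyd5) and -0.86 (Epm2aip1) with Arntl. The pair with the largest absolute value was Arntl and Per3, with Pearson r = -0.88 (permutation p = 0.00018, adjusted p = 0.0081) and Spearman rho = -0.80 (permutation p = 0.00235, adjusted p = 0.078). Without the 2 libraries farthest from the median of Arntl, replicate 5 of each group, r was -0.78. Within noninduced hearts r was -0.80 (exact permutation p = 0.0458) and within Parkin KO hearts -0.94 (exact permutation p = 0.025). Among 9702 genes of at least 5 CPM, Per3 had the lowest r with Arntl of all.

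Arntl and Cry1 were opposed as well, with r = -0.78 (permutation p = 0.00206, adjusted p = 0.0309), rho = -0.76 (permutation p = 0.00553, adjusted p = 0.078) and r = -0.73 without replicate 5 of each group. Within groups r was -0.84 in noninduced hearts (exact permutation p = 0.0417) and -0.86 in Parkin KO hearts (exact permutation p = 0.0153). In these hearts Cry1 thus ran against Arntl, with which it had been placed in the arm contrast. Cry1 and Nr1d1 were opposed with r = -0.83 (permutation p = 0.00124, adjusted p = 0.0279), rho = -0.75 (permutation p = 0.00693, adjusted p = 0.078) and r = -0.70 without the 2 libraries farthest from the median of Cry1. This relation was at r = -0.97 in Parkin KO hearts (exact permutation p = 0.00278) and -0.46 in noninduced hearts (exact permutation p = 0.368), and the difference between the groups was not tested. Per1 and Per2 ran together, with r = 0.78 (permutation p = 0.00281, adjusted p = 0.0316), rho = 0.76 (permutation p = 0.0063, adjusted p = 0.078) and r = 0.80 without the 2 libraries farthest from the median of Per1. Within groups r was 0.83 and 0.93 (exact permutation p = 0.0458 and 0.0444). No rank correlation passed after adjustment over the 45 pairs.

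**Figure D4:**
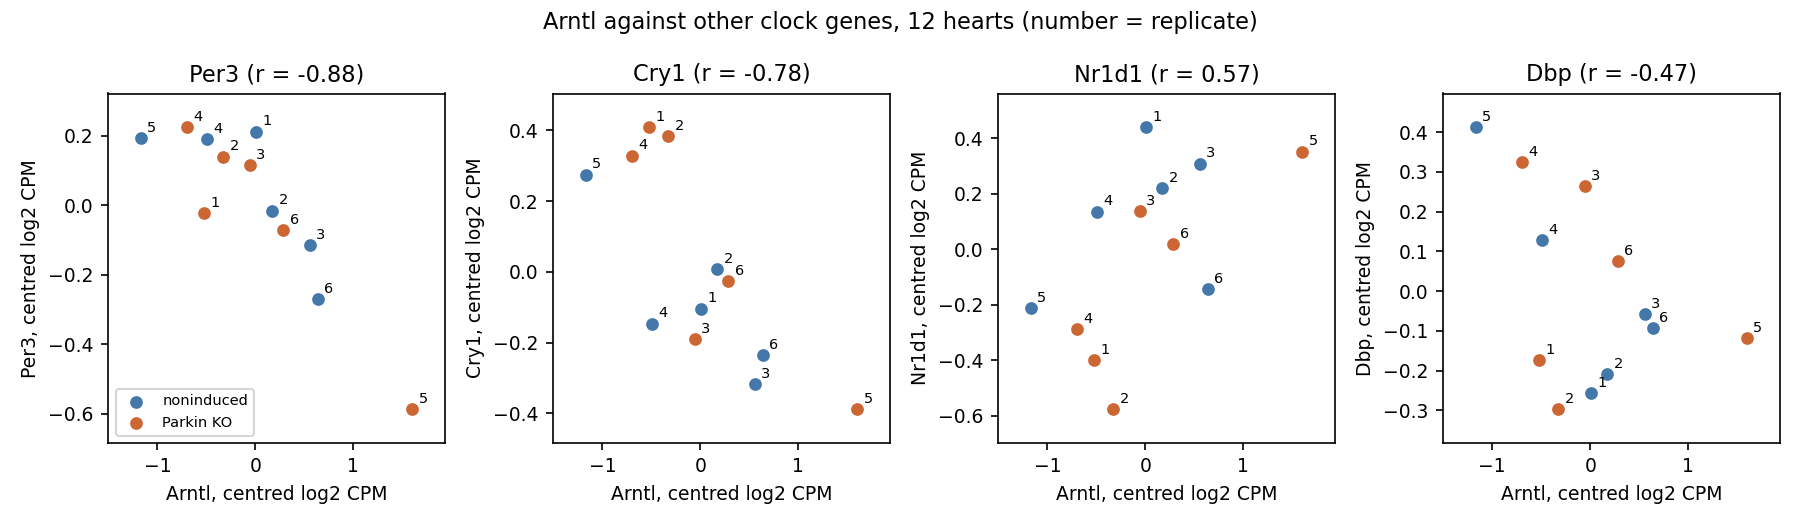
Centred log2 CPM of Per3, Cry1, Nr1d1 and Dbp (y axes) against that of Arntl (x axes) in 6 noninduced (blue) and 6 Parkin KO (orange) hearts, numbered by replicate, with Pearson r above each panel. Per3 (r = -0.88) and Cry1 (r = -0.78) fall as Arntl rises in both groups, Nr1d1 runs the same way as Arntl (r = 0.57), and the points for Dbp are more scattered (r = -0.47).

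Other pairs that the layout of the loop would set together or apart were looser. Arntl and Dbp had r = -0.47 (permutation p = 0.125, adjusted p = 0.330) and rho = -0.38 (permutation p = 0.228, adjusted p = 0.447), with r = -0.26 without replicate 5 of each group. In noninduced hearts alone r was -0.80 (exact permutation p = 0.0556), and in Parkin KO hearts -0.21 (exact permutation p = 0.753). Arntl and Nr1d1, whose protein is known to repress Arntl, had a positive r of 0.57 (permutation p = 0.0538, adjusted p = 0.182) and rho = 0.61 (permutation p = 0.0400, adjusted p = 0.180), with r = 0.47 without replicate 5 of each group. Within groups r was 0.39 in noninduced hearts (exact permutation p = 0.447) and 0.81 in Parkin KO hearts (exact permutation p = 0.0333). Arntl and Npas2 had r = 0.14 (permutation p = 0.673, adjusted p = 0.845) and rho = -0.01 (permutation p = 0.975, adjusted p = 0.997), with r = -0.50 without replicate 5 of each group. The REV-ERB pair, Nr1d1 and Nr1d2, had r = -0.53 (permutation p = 0.0767, adjusted p = 0.230) and rho = -0.71 (permutation p = 0.0119, adjusted p = 0.0875), with r = -0.35 without the 2 libraries farthest from the median of Nr1d1. Pairs within an arm were as often negative (12 of 24) as positive, and pairs across the arms were negative in 11 of 21.

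Genes whose pattern over the 12 libraries was most like that of Arntl, by Pearson r of log2 CPM, were Smyd5 (0.82), Hcls1 (0.79), Mfng (0.79), Ap1m1 (0.79) and Fam101b (0.77). The most opposed after Per3 were Epm2aip1 (-0.86), Adam22 (-0.84), Wee1 (-0.83) and Thsd4 (-0.83). Wee1, a cell-cycle kinase gene known as a direct E-box target of the clock, was the only one of these non-members on a gene list used here. Of 15 further clock genes in this ranking, the most opposed to Arntl were Tef (-0.77), Rora (-0.72) and Hlf (-0.62), and the other 12 lay between -0.26 and 0.37, with Clock at 0.32. For Dbp the most alike were Tyk2 (0.87), Itpr3 (0.83), Fam172a (0.83), Lrrc45 (0.82) and Rrbp1 (0.82), and the most opposed Dhrs3 (-0.91), Klf11 (-0.86), 2010012O05Rik (-0.86), Cd151 (-0.86) and Arhgef5 (-0.86). No member was among the 5 at either end for Dbp. These values describe 12 libraries that share group and depth differences, and are given without a test.

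None of the further clock genes tested passed either. Of 18 further clock genes 17 were tested, and 0 passed (edgeR, adjusted p), with 8 higher and 9 lower in Parkin KO hearts and a median log2 fold change of -0.04. Lower at an unadjusted p under 0.05 were 2, beside 5.54% of all genes. Bhlhe40, an E-box repressor also known as Dec1, had a mean of 92.3 ± 13.5 CPM in noninduced hearts and of 72.5 ± 13.7 CPM with Parkin KO (SD, n = 6 each), with a log2 fold change of -0.35 ± 0.13 (SE; edgeR, adjusted p = 0.424). Rorb, an activator through the ROR element, was at 3.98 ± 1.23 and 2.84 ± 0.379 CPM in the same order, with a log2 fold change of -0.47 ± 0.21 (SE; edgeR, adjusted p = 0.432). Clock itself stood at 27.5 ± 4.26 and 26.6 ± 5.42 CPM (edgeR, log2 fold change -0.05, adjusted p = 0.897). Ciart, a repressor listed in the table under the older symbol Gm129, had a log2 fold change of -0.22 (edgeR, adjusted p = 0.675).

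Genes known to follow the clock or the time of day in heart included a few with larger differences. Of 15 tested, 0 passed, 11 were higher and 4 lower in Parkin KO hearts, and the median log2 fold change was 0.11. With an unadjusted p under 0.05 there were 4, all higher, beside 5.82% of all genes. They were Cirbp, an RNA-binding protein induced by cold (0.70 ± 0.18, SE), Ucp3, a mitochondrial carrier raised by fatty acids (1.02 ± 0.35), Pdk4, a kinase that shuts off pyruvate dehydrogenase (0.97 ± 0.34), and Dgat2, an enzyme of triglyceride synthesis (0.43 ± 0.18), with adjusted p of 0.417, 0.417, 0.417 and 0.424 (edgeR). Of 10 glucocorticoid-responsive genes 0 passed, with 4 higher and 6 lower. Cdkn1a, a cell-cycle inhibitor, was the only 1 with an unadjusted p under 0.05, beside 11.4% of all genes in either direction. The log2 fold change of Cdkn1a was -0.91 ± 0.26 (SE; edgeR, adjusted p = 0.417). Of 12 immediate-early genes 0 passed, 11 were lower, and the median was -1.22, while 52.0% of all genes were higher. Their summed RNA was highest in noninduced libraries 1, 2 and 3, and the other noninduced libraries lay within the Parkin KO range. Lower at an unadjusted p under 0.05 were 9, beside 5.54% of all genes. The 6 of smallest p, Egr3, Fosb, Nr4a3, Egr1, Egr2 and Fos, had log2 fold changes of -1.74, -2.25, -2.71, -0.69, -1.21 and -1.23 (edgeR, adjusted p from 0.417 to 0.424). Atrial markers, 6 of 6 lower, summed to 121 to 5987 CPM in noninduced and 158 to 1547 CPM in Parkin KO libraries, with the most in noninduced libraries 5, 6 and 2. Without Nppa, which was highest in noninduced replicate 6 at 4049 CPM, the 5 other markers summed to 2380 CPM in noninduced replicate 5 and 1556 CPM in noninduced replicate 2, against at most 233 CPM elsewhere. Noninduced replicate 5 is the library of lowest Arntl and highest Dbp, and the part of atrial RNA in the clock values was not tested.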

How the data were processed

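The authors deposited whole-number counts of reads per gene symbol and a table of FPKM values. The submitters' processing notes name build mm10 and the tools TopHat2 2.0.10, Bowtie2, HTSeq and Cufflinks 2.1, without their roles. The sources used here do not give the annotation or how reads were counted. Columns headed wt were taken as the noninduced samples of the same number.

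Counts were fitted in R 4.3.3 with edgeR 4.0.16 (TMM, filterByExpr, quasi-likelihood F test, two-sided, group term alone), with Benjamini-Hochberg adjustment over 13050 genes and a threshold of 0.05. Standard errors come from the estimate and the F statistic, and intervals are approximate. Log2 CPM used a prior count of 2. Correlations used 100000 permutations, or all 720 pairings within a group. Alternatives were DESeq2 1.42.0, limma-voom (limma 3.58.1), other size factors, no filter, limma on log2(FPKM + 1) and log2(FPKM + 0.1) for genes with a mean FPKM of at least 1 or with no filter, a replicate block, a sex term (over 50 Y-linked reads) and left-out libraries. For FPKM, 4 genes listed at 0 in libraries with over 1000 counts were left out. The edgeR code was tested on simulated data.

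Members and lists were chosen with earlier results of these data known. Genes named beyond the members are those with an unadjusted p under 0.05 in a fixed list (at most 6, otherwise 2), fixed clock genes by role, and the 5 highest and lowest in r with Arntl or Dbp. Of the promoters planned for printing, those without a motif are not shown, and that of Per3 was chosen after its values were seen. The reads of the deleted gene and some results for listed genes are not reported here.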

Additional observations from a re-analysis of the deposited data

Results flagged for a closer look

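Of 22 sets of 6 libraries examined (each member and the arm contrast in each group), 2 held a library far from the other 5. Chance flags about 1 in 20 sets of normally distributed values. Both came from Parkin KO replicate 5, with 4.82 CPM of Arntl, against 0.876 to 1.86 CPM in the other Parkin KO hearts, and an arm contrast of 0.92, against -0.24 to 0.06. The contrast contains Arntl, so these are not separate signs.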

How the results depend on the processing

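Clock members past the threshold numbered 0 under all 25 alternatives, leave-one-out included (0 to 0). Over all genes, DESeq2 called 10, edgeR without noninduced libraries 1 and 3 called 1, and edgeR called 0 on leaving out any 1 library. Among 248 recomputed fold changes of members, 215 kept their sign, 33 changed it and none passed (adjusted p from 0.273 to 1.0). Per1, Cry1, Cry2 and Nr1d1 kept their sign throughout.

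Sign changes for Nr1d2 were -0.0089 with DESeq2, -0.0282 with limma-voom, -0.0094 with edgeR on DESeq2 size factors, -0.00105 with FPKM and a pseudocount of 0.1, -0.0216 with a replicate block, -0.0359 with a sex term, -0.0049 among libraries with few Y-linked reads and -0.0362 without noninduced libraries 1 and 3. On leaving out 1 library Nr1d2 ran from -0.0779 to 0.12, Dbp from -0.0513 to 0.11, Npas2 from -0.19 to 0.0464, Arntl from -0.32 to 0.39, Per2 from -0.18 to 0.0618 and Per3 from -0.12 to 0.0375. Dbp was at -0.0630 without noninduced libraries 1 and 3. With a sex term Arntl was at -0.19, Per2 at 0.0265 and Per3 at 0.0179, and among libraries with few Y-linked reads they were at -0.38, 0.12 and 0.0364. That set leaves out Parkin KO libraries 2, 5 and 6 and the library labelled noninduced 3. Leaving out Parkin KO replicate 5 alone gave -0.32 for Arntl, 0.0618 for Per2 and 0.0375 for Per3. Sex and the absence of that library therefore cannot be told apart here. Per2 was at 0.0524 without noninduced libraries 2 and 5, which held the most RNA of atrial markers other than Nppa, an alternative chosen after seeing the data. The cause was not tested.

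Same-numbered libraries had correlations of deviations from -0.10 to 0.17 and share only a number. With the replicate block, 1700 genes (13.0%) in place of 1483 (11.4%) came under the unadjusted threshold, Per1 among them at -0.45 (edgeR, adjusted p = 0.367). Over all alternatives that number ran from 628 to 2131. The arm contrast differed by 0.0034 to 0.25 on leaving out 1 library, by -0.05 among libraries with few Y-linked reads and by 0.08 with Cry1 moved to the other arm after seeing the data. For Arntl with Per3, a pair chosen after seeing the data, r ran from -0.93 to -0.70, and for Arntl with Dbp from -0.65 to -0.25. Arntl, at 10 to 68 reads, fell below the FPKM minimum and was not tested with that filter.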

Other observations

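Cirbp and Rbm3, cold-induced RNA-binding proteins whose RNA follows the daily rhythm of body temperature, differed in how they sat against the groups. Cirbp ran from 26.5 through 38.3 to 54.1 CPM in noninduced and from 43.6 through 65.9 to 77.9 CPM in Parkin KO hearts. Noninduced libraries 4 and 5, at 54.1 and 47.9 CPM, were the only ones of their group above Parkin KO replicate 1, the lowest of the other group. Rbm3 ran from 25.1 through 35.5 to 49.9 CPM and from 34.5 through 45.6 to 50.7 CPM, with overlap over most of its range (edgeR, log2 fold change 0.29, adjusted p = 0.492). Noninduced libraries 1, 2 and 3, which were high for Per1 and the immediate-early genes, held the lowest Rbm3 of all 12, at 26.2, 28.7 and 25.1 CPM.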
